A study of Homo sapiens with 7 samples.

Results

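Interferon response genes are the genes that cells switch on when type I interferon binds its receptor. The 40 members described here were chosen by name, as genes that are textbook targets of this pathway, out of 22257 genes in the deposited tables, and where a gene had several transcripts, the one with most counts on average was used. The libraries come from RL and JeKo-1, which the submitters label as mantle cell lymphoma (MCL) lines, a lymphoma of B cells. Cells were left untreated or were exposed for 6 h to an inhibitor of Bruton's tyrosine kinase (BTK), a kinase downstream of the B cell receptor; the series title names ibrutinib and the labels give no dose. RL has 2 untreated and 2 treated libraries, and JeKo-1 has 1 untreated and 2 treated libraries. No genetic change is stated for any group, and the labels do not tell separate cultures from repeat preparations of 1 culture, so a p-value reflects only how far these libraries scatter, possibly for technical reasons. No vehicle treatment of the untreated cells is stated. The JeKo-1 control has no replicate, and the fit of JeKo-1 alone takes its spread from the 2 treated libraries, with 1 residual degree of freedom. A smaller p-value in JeKo-1 than in RL thus does not make a JeKo-1 change the more certain one.

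Levels are given as CPM, the count scaled to a fixed total per library, computed from the deposited read counts with edgeR's TMM scaling over all 7 libraries. Taking each gene once, totals were 24.2 and 25.9 M counts in the RL controls, 19.1 and 33.5 M in treated RL, 24.4 M in the JeKo-1 control and 23.3 and 24.0 M in treated JeKo-1. CCND1, the cyclin that defines MCL, stood at 549 CPM or more in every RL library and at 380 CPM or more in every JeKo-1 library. CD5, a surface marker of most MCL, lay between 14.7 and 18.2 CPM in RL and between 0.101 and 0.283 CPM in JeKo-1. As a check of the treatment, MYC, a growth regulator downstream of the B cell receptor, fell by 2.55 on the log2 scale in RL and had a log2 fold change of -0.08 in JeKo-1 that did not pass the test. The chemokine gene CCL3 fell in both lines, with log2 fold changes of -3.37 in RL and -2.39 in JeKo-1.

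Type I interferon acts through its receptor and the kinases JAK1 and TYK2, which phosphorylate STAT2 among other factors. STAT2 and IRF9 are subunits of a complex, ISGF3, that binds the interferon-stimulated response element (ISRE) in target promoters, while the gamma-activated site (GAS) is the element that answers interferon gamma. The targets include sensors of viral RNA, enzymes that degrade RNA, proteins that block viral translation or release, and the factors of the pathway itself, and many of them are also expressed at a low tonic level without infection.

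Promoter windows from RefSeq (GRCh38.p14, from 250 bases before to 50 bases after a gene's start) were found for 33 of the 40 members, DDX58 under its newer symbol RIGI; IRF7, OAS2, OASL, IFIT2, MX2, USP18 and TRIM22 had none in the table used. The ISRE core was searched as GAAA, any 2 bases and GAAA, and the GAS as TTC, any 3 bases and GAA, on both strands, and a base could belong to both motifs. The ISRE core lay in the window of 23 of the 33 members (69.7%), beside 4.38% of all 27305 genes in the table. The GAS lay in 11 of the 33 (33.3%), beside 9.38% of all genes. The members are known interferon targets, so these shares describe how they were chosen. The sequences below show promoters from some of the response patterns described later, 5′ to 3′ on the gene's strand, with motif matches in capitals. OAS3 (chr12:112938314-112938473, plus strand) and PARP9 (chr3:122564301-122564360, minus strand) were called lower after the inhibitor in both lines, and IFIT1 (chr10:89392463-89392622, plus strand) and IFIT3 (chr10:89332369-89332528, plus strand) in JeKo-1. EPSTI1 (chr13:42992242-42992401, minus strand) moved in opposite directions. ISG20 (chr15:88638856-88639015, plus strand) and IRF1 (chr5:132490774-132490933, minus strand) were called higher in both lines, and ISG15 (chr1:1013337-1013496, plus strand) in neither. PARP9 is shown from position -60 to -1 before its start and the others from -160 to -1.
OAS3: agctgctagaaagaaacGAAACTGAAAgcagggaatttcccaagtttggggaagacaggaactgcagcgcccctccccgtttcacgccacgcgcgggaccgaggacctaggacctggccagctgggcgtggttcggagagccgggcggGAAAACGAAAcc
PARP9: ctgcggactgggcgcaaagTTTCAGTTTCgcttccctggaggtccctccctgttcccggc
IFIT1: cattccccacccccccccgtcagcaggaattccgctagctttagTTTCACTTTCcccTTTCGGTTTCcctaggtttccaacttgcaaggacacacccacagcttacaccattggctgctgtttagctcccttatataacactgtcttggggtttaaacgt
IFIT3: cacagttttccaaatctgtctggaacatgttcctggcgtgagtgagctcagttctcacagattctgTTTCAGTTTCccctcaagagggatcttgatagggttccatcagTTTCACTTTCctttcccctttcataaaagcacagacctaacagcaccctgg
EPSTI1: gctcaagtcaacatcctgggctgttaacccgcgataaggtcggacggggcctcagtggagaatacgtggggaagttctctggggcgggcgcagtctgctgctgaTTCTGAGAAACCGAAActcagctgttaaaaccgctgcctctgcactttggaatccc
ISG20: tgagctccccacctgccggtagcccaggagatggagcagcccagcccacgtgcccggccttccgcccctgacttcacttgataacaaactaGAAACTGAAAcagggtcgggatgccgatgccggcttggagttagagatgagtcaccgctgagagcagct
IRF1: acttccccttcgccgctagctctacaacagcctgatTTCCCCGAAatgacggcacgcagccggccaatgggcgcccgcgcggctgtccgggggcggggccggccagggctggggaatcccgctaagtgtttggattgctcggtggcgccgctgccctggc
ISG15: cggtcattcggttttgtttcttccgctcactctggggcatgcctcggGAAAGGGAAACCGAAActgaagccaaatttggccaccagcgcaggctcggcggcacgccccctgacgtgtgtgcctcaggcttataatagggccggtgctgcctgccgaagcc

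IFIT1, IFIT3 and OAS3 each carry a pair of separate ISRE cores in the stretch shown. In ISG15 the capitals are a pair of overlapping ISRE cores, and in EPSTI1 a GAS that overlaps an ISRE core. The capitals in IRF1 are a GAS, and no ISRE core was found in its window. PARP9 and DTX3L are transcribed away from each other from starts 38 bases apart, and the ISRE core of PARP9 at chr3:122564332-122564341 is also the one found in the DTX3L window. Among members with a window, the ISRE core was found in 11 of 14 called lower in JeKo-1, 1 of 3 called higher in JeKo-1, 5 of 12 called higher in RL, all 4 called lower in RL and 8 of 9 called in neither line. These are matches of letters, not measured binding, and the groups are small. DDX60, HERC5, IFI27, RSAD2 and IFI44, counted here as called in neither line, were not tested in JeKo-1.

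Untreated RL held far more interferon response RNA than untreated JeKo-1. Summed over the 40 members, the level was 1320 and 1160 CPM in the RL controls and 540 CPM in the JeKo-1 control. In a model of all 7 libraries, 36 members were higher in RL, where 39.1% of the 15845 genes tested were, and 3 were lower (STAT2, IRF1 and MX2), where 37.2% of genes were. USP18 was the 1 member not called, so 39 differed, where 76.4% of all genes did. The median log2 difference, RL over JeKo-1, was 2.15 over the members and 0.048 over all genes. The model takes the JeKo-1 control to vary like the other groups. These are bulk RNA samples, so fewer expressing cells and less RNA per cell cannot be told apart.

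The widest gaps between the untreated lines lay in genes that were all but missing from JeKo-1. HERC5, a ligase that attaches ISG15 to new proteins, had 209 and 176 counts in the RL controls and 0 in the JeKo-1 control, which makes it at least 55.8-fold higher in RL when the JeKo-1 level is set at 3 counts in its library. IFI44, an interferon-induced cytoplasmic protein, had 604 and 459 counts in the RL controls and 2 in the JeKo-1 control, a ratio of 231 with a 95% counting interval of 63.8 to 1910. The RNA helicase DDX60 had 730 and 592 counts beside 8 (ratio 71.9, 36.4 to 167), and RSAD2, which makes the antiviral nucleotide ddhCTP, had 278 and 233 counts beside 4 (ratio 55.6, 21.6 to 205). Each of these was present in both RL controls at 3.75 CPM or more and at or below 0.203 CPM in every JeKo-1 library. SAMD9L, a growth-restraining antiviral protein, stood at 90.0 and 69.7 CPM in the RL controls and 0.913 CPM in the JeKo-1 control, and IFI44L at 29.3 and 19 CPM beside 0.507 CPM. The intervals cover counting error only.

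Per kilobase of transcript (GENCODE v29 lengths, 37 members with a length), the lines differed in which members led. In the RL controls the highest were BST2 (43.5 CPM per kb), TRIM22 (33.9), OAS1 (33.7), UBE2L6 (31.5) and MX1 (24.7). The range of TRIM22 over the RL controls overlapped those of OAS1 and UBE2L6, so its level does not differ from theirs beyond the spread, while BST2 lay above and MX1 below all 3. In the JeKo-1 control the order was MX2 (35.5 CPM per kb), UBE2L6 (22.9), STAT2 (21.9), BST2 (18.9) and IRF1 (11.0). BST2 and UBE2L6 were thus among the 5 highest members of both lines, while MX2 was at rank 1 in JeKo-1 and rank 21 in RL.

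**Figure D1:**
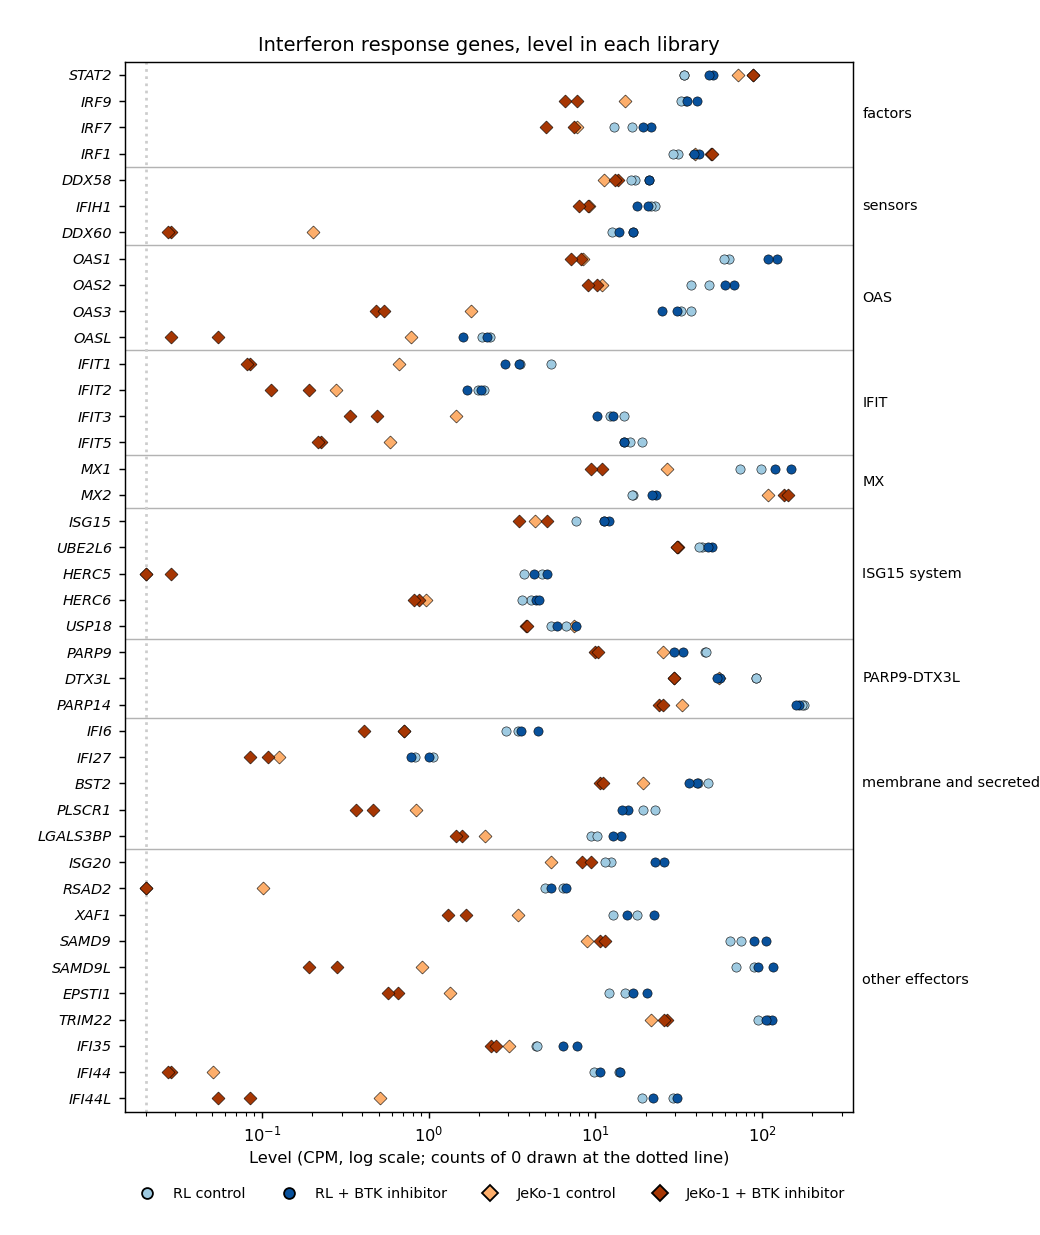
Level of each of the 40 members in CPM (log axis) in the 7 libraries, with members grouped by role and 1 point per library. RL points lie to the right of JeKo-1 points for most members; STAT2, IRF1 and MX2 are the members called higher in untreated JeKo-1.

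In RL, 15 members rose and 4 fell after 6 h of the inhibitor, and 21 did not pass the test. Together the 19 changed members stand beside 30.4% of genes that changed in either direction. The 15 are 37.5% of the members, where 15.1% of the 14932 genes tested rose, and the 4 are 10.0%, where 15.3% of genes fell. The rises were led by ISG20 and OAS1, and most were small, between 0.19 and 1.03 on the log2 scale. The falls were DTX3L, PARP9, PLSCR1 and OAS3, and with DESeq2's size factors in the same test 7 members fell, BST2, IFIT1 and IFIT5 in addition. The median log2 fold change was 0.155 over the members and 0.007 over all genes. In 18 members (45.0%) both treated libraries lay above both controls, as for 33.1% of all genes, and in 9 (22.5%) both lay below, as for 32.2%. The summed level was 1520 and 1330 CPM after treatment beside 1320 and 1160 CPM before, so the lower treated library lay just above the higher control. In the authors' deposited table of the same RL libraries, 18 members had an FDR under 0.05, 14 higher and 4 lower. All 18 were also called here, which is no separate evidence because the libraries are the same. The share of all genes under that FDR was not computed.

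In JeKo-1 the balance was the other way, with 5 members higher and 16 lower, 21 in all, where 28.3% of genes changed in either direction. Of the 40 members 35 passed the filter on low counts; DDX60, HERC5, IFI27, RSAD2 and IFI44 did not. The 16 lower members are set beside 14.9% of the 14050 genes tested that fell, and the 5 higher ones beside 13.4% that rose. OASL, IFIT1, IFIT2, IFIT5 and IFI44L passed the filter only through the control, so lower treated levels are built into this group. Without genes of that kind, 12 of 30 members were called lower (40%, beside 14.7% of 13819 genes), and the median log2 fold change was -0.341 over the members and -0.001 over all genes. In 21 of these 30 (70.0%) both treated libraries lay below the control, as for 40.2% of those genes, and in 8 (26.7%) both lay above it, as for 41.9%. The summed level was 540 CPM in the control and 506 and 515 CPM after treatment, while MX2 alone stood at 108 CPM in the control and 136 and 142 CPM after treatment. DESeq2 called 7 of the 16 lower members; OAS3, IFIT3, XAF1, SAMD9L and EPSTI1 did not pass there, and OASL, IFIT1, IFIT5 and IFI44L had no adjusted p. MYC, at 284 CPM in the control and 264 and 275 CPM after treatment, did not pass the test in this line.

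**Figure D2:**
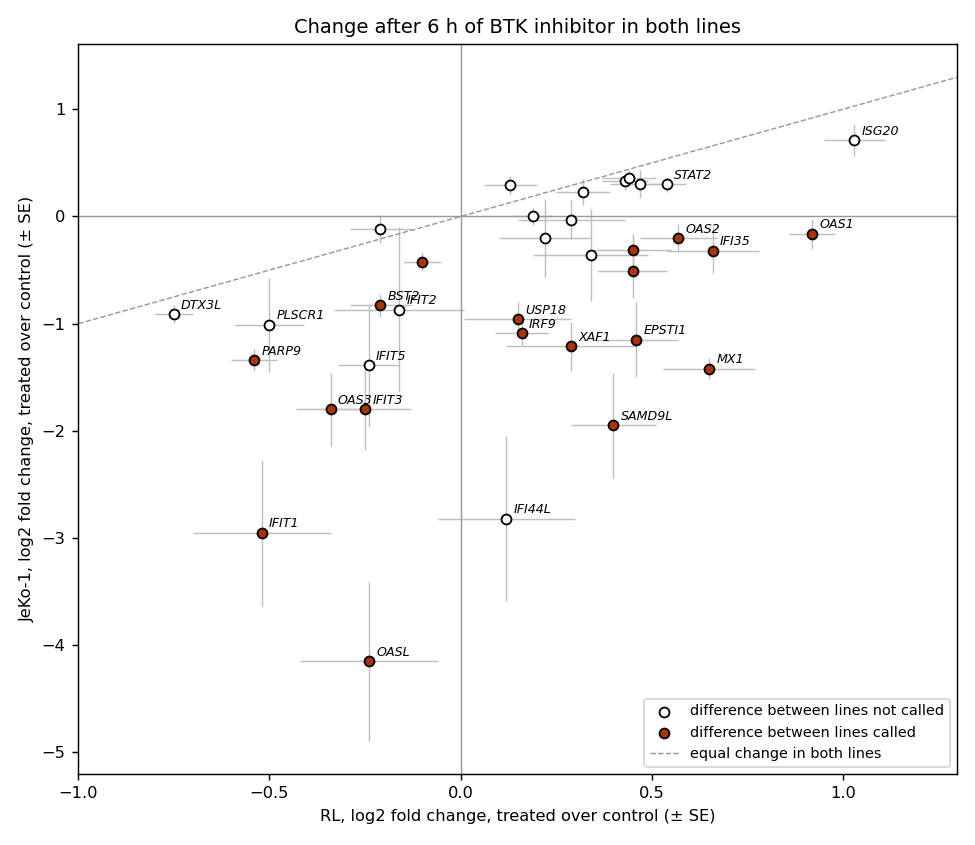
Log2 fold change, treated over control, in RL (horizontal) and JeKo-1 (vertical) for the 35 members tested in both lines, with bars of 1 standard error. STAT2, IRF1, MX2 and ISG20 lie above 0 on both axes, OAS3, PARP9 and DTX3L below 0 on both, and MX1, SAMD9L and EPSTI1 to the right of and below 0.

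Of the 4 transcription factors, STAT2 and IRF1 rose in both lines, IRF7 rose in RL and IRF9 fell in JeKo-1. STAT2, a subunit of ISGF3, stood at 34.1 and 34.0 CPM in the RL controls and 51.0 and 48.2 CPM after treatment, and in JeKo-1 at 71.5 CPM in the control and 88.2 and 88.7 CPM after treatment. It rose by 0.54 ± 0.05 (SE) in RL and by 0.30 ± 0.07 in JeKo-1 on the log2 scale (edgeR adjusted p = 1.8e-05 and 0.00012). Treated and untreated libraries did not overlap in either line. IRF9, the DNA-binding subunit of the same complex, stood at 35.1 and 32.4 CPM in the RL controls, at 40.6 and 35.3 CPM in treated RL, at 15.1 CPM in the JeKo-1 control and at 6.59 and 7.72 CPM in treated JeKo-1. It was called lower in JeKo-1, by 1.09 ± 0.12, while its RL log2 fold change of 0.16 ± 0.07 did not pass (edgeR adjusted p = 0.114). The genes for these ISGF3 subunits thus moved apart in JeKo-1. Without RL treated library 2, IRF9 was called in RL as well, at a log2 fold change of 0.28.

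IRF1, a factor induced mainly by interferon gamma, stood at 31.1 and 29.1 CPM in the RL controls and 41.8 and 39.2 CPM after treatment, and at 39.3 CPM in the JeKo-1 control and 49.5 and 49.7 CPM after treatment. Its rises of 0.43 ± 0.06 in RL and 0.33 ± 0.08 in JeKo-1 were of similar size, with a difference of -0.08 ± 0.10 that did not pass the test. Its promoter stretch above is the one with a GAS and no ISRE core. IRF7, the factor that amplifies interferon production, stood at 16.6 and 13.0 CPM in the RL controls, 21.4 and 19.2 CPM in treated RL, 7.74 CPM in the JeKo-1 control and 5.03 and 7.45 CPM in treated JeKo-1. It rose by 0.45 ± 0.10 in RL. In JeKo-1 its log2 fold change was -0.31 ± 0.15 and did not pass, and without JeKo-1 treated library 2 it was -0.61 and passed.

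**Figure D3:**
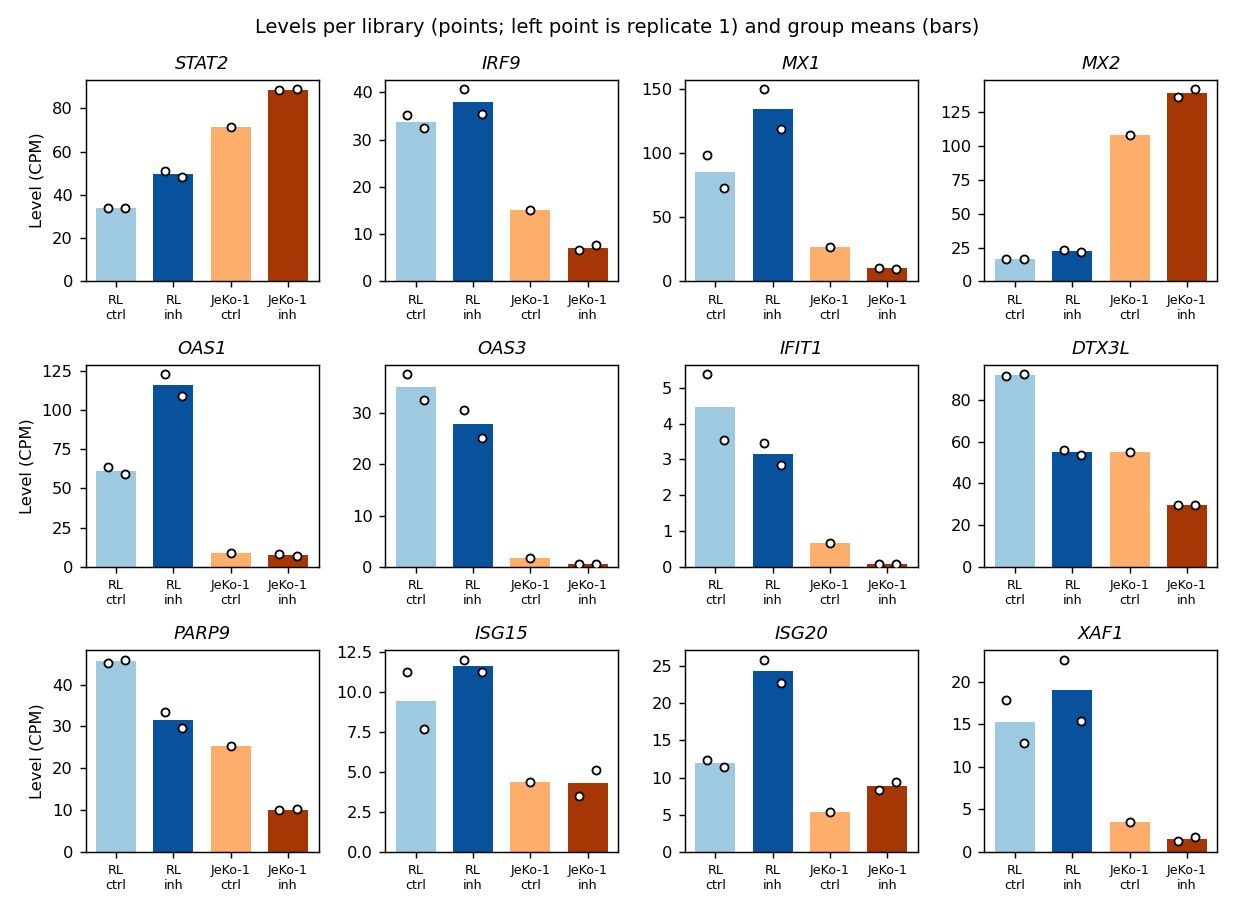
CPM of selected members in each library (points, 1 per library) with bars at the group mean, on linear axes that start at 0; the JeKo-1 control is 1 library. OAS1 and ISG20 stand higher in treated than in untreated RL, and MX1 stands higher in treated RL and lower in treated JeKo-1.

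Of the 3 sensors of viral RNA, 1 rose in RL, and neither of those tested in JeKo-1 passed. Over all genes tested, 30.4% were called in RL and 28.3% in JeKo-1, so these counts do not set the sensors apart. DDX58, which encodes RIG-I, rose in RL by 0.32 ± 0.07 on the log2 scale, from 17.2 and 16.4 CPM to 20.9 CPM in both treated libraries, and had 11.3 CPM in the JeKo-1 control beside 13.6 and 13.1 CPM after treatment without passing the test. IFIH1, which encodes MDA5, lay between 17.8 and 22.7 CPM in RL and between 8.02 and 9.21 CPM in JeKo-1 and passed in neither line. DDX60 stood at 16.8 and 12.6 CPM in the RL controls and 16.8 and 13.9 CPM after treatment, with overlapping groups.

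The OAS genes, whose products make the oligoadenylate signal that activates RNase L, split within the family. OAS1 stood at 63.5 and 59.0 CPM in the RL controls and 123 and 109 CPM after treatment, a rise of 0.92 ± 0.06 on the log2 scale or 1.89-fold (edgeR adjusted p = 1.4e-06). OAS2 stood at 48.1 and 37.6 CPM in the RL controls and 68.1 and 59.5 CPM after treatment and rose by 0.57 ± 0.10. Neither passed the test in JeKo-1, where OAS1 had 8.47 CPM in the control and 8.17 and 7.10 CPM after treatment, and OAS2 had 11.0 CPM beside 10.2 and 9.05 CPM. OAS3 instead fell in both lines. Its RL controls stood at 37.6 and 32.7 CPM and its treated RL libraries at 30.7 and 25.2 CPM, a fall of 0.34 ± 0.09, and in JeKo-1 it had 1.78 CPM (70 counts) in the control and 0.481 and 0.542 CPM (17 and 20 counts) after treatment, a fall of 1.8 ± 0.34. Without RL treated library 2 the RL value was -0.19 and no longer passed (edgeR adjusted p = 0.102), and DESeq2 did not call it in JeKo-1 (adjusted p = 0.0763). OASL, a family member without the enzyme activity, had 31 counts in the JeKo-1 control and 1 and 2 after treatment, a ratio of 19 with a 95% counting interval of 5.91 to 96.9, and 2.32, 2.09, 2.25 and 1.61 CPM in the RL libraries, where it did not pass.

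No IFIT gene, whose products bind viral RNA and block its translation, passed in RL, and 3 of the 4 fell in JeKo-1 from low levels. Over all genes tested, 30.4% were called in RL and 14.9% fell in JeKo-1. IFIT1, IFIT2 and IFIT5 passed the filter there only through the control, so IFIT3 is the 1 fall of these that does not depend on it, and DESeq2 did not call it (adjusted p = 0.13). IFIT1 stood at 5.38 and 3.54 CPM in the RL controls and 3.46 and 2.85 CPM in treated RL, a log2 fold change of -0.52 ± 0.18 (edgeR adjusted p = 0.0521). It was called lower in RL in 7 of 11 alternative settings, among them without RL control library 2 (-0.80) and without treated library 1 (-0.65). In JeKo-1 it had 26 counts in the control and 3 in each treated library, a ratio of 7.95 with a 95% counting interval of 3.20 to 23.6. IFIT3 fell in JeKo-1 by 1.8 ± 0.38, from 57 counts to 12 and 18, and IFIT5 by 1.39 ± 0.57, from 23 counts to 8 in each treated library. The IFIT5 call was lost in 5 of 7 alternatives, among them without either treated JeKo-1 library (adjusted p = 0.0861 and 0.0892, within a range of 0.0253 to 0.0892). IFIT2 had 11 counts beside 4 and 7 and did not pass. In RL, IFIT3 lay between 10.2 and 14.8 CPM and IFIT5 between 14.9 and 18.9 CPM, so the 3 genes that fell in JeKo-1 were also far less abundant there.

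The neighbouring genes MX1 and MX2, which encode GTPases that trap viral components, moved the same way in RL and apart in JeKo-1. MX1 stood at 98.4 and 73.3 CPM in the RL controls and 150 and 119 CPM after treatment, and at 27.0 CPM in the JeKo-1 control and 10.9 and 9.40 CPM after treatment. It rose in RL by 0.65 ± 0.12 on the log2 scale (edgeR adjusted p = 0.00189) and was called lower in JeKo-1, by 1.42 ± 0.10. The groups did not overlap in either line, and the 2 responses pointed in opposite directions. DESeq2 did not call the RL rise (adjusted p = 0.0757). MX2 stood at 16.8 and 16.5 CPM in the RL controls and 23.2 and 21.9 CPM after treatment, and at 108 CPM in the JeKo-1 control and 136 and 142 CPM after treatment. It rose by 0.44 ± 0.07 in RL and 0.36 ± 0.07 in JeKo-1, and the difference of -0.06 ± 0.09 did not pass. MX2 was 6.46-fold higher in untreated JeKo-1 than in untreated RL, against the direction of most members.

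Of the ISG15 system, which tags proteins with the ubiquitin-like ISG15, 1 of 5 genes rose in RL and 1 of 4 tested fell in JeKo-1, where 30.4% and 28.3% of all genes changed. ISG15 stood at 11.2 and 7.65 CPM in the RL controls, 12 and 11.2 CPM in treated RL, 4.36 CPM in the JeKo-1 control and 3.50 and 5.09 CPM in treated JeKo-1. Its groups overlapped in both lines and neither change passed; without RL control library 1 its RL log2 fold change was 0.58 and passed (edgeR adjusted p = 0.0001, within a range of 0.0001 to 0.885 over 11 alternatives). UBE2L6, the conjugating enzyme of the system, stood at 43.7 and 41.6 CPM in the RL controls and 50 and 47.5 CPM after treatment, and lay between 30.9 and 31.4 CPM in JeKo-1. Its RL rise of 0.19 ± 0.05 was the smallest called and was lost without control library 2 (0.16) or treated library 1 (0.14), with adjusted p = 0.171 and 0.0921. The ligase HERC5 stood at 4.81 and 3.75 CPM in the RL controls and 5.13 and 4.29 CPM in treated RL, and its relative HERC6 lay between 3.64 and 4.57 CPM in RL and 0.813 and 0.964 CPM in JeKo-1; neither passed where tested. USP18, which removes ISG15 and also restrains the interferon receptor, stood at 6.62 and 5.41 CPM in the RL controls, 7.64 and 5.91 CPM in treated RL, 7.48 CPM in the JeKo-1 control and 3.84 and 3.87 CPM in treated JeKo-1. It fell by 0.96 ± 0.16 in JeKo-1 and did not pass in RL.

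PARP9, a macrodomain protein, and its partner DTX3L, a ubiquitin ligase, fell in both lines. PARP9 stood at 45.2 and 46.0 CPM in the RL controls and 33.5 and 29.7 CPM after treatment, and at 25.4 CPM in the JeKo-1 control and 9.89 and 10.3 CPM after treatment. It fell by 0.54 ± 0.06 in RL (edgeR adjusted p = 6.7e-05) and was called lower in JeKo-1, by 1.34 ± 0.10, on the log2 scale. DTX3L stood at 91.7 and 92.2 CPM in the RL controls and 56.1 and 53.6 CPM after treatment, and at 55.1 CPM in the JeKo-1 control and 29.7 and 29.4 CPM after treatment. It fell by 0.75 ± 0.05 in RL and by 0.91 ± 0.08 in JeKo-1. The treated libraries of both genes lay below the controls in both lines, and the fall of PARP9 was larger in JeKo-1 by 0.79 ± 0.12 while that of DTX3L did not differ beyond its error (-0.15 ± 0.09). The library kit does not mark strand, but the 38 bases between the starts given above lie before both of them. Transcripts that begin at these starts do not share that stretch. PARP14, another macrodomain protein, fell by 0.42 ± 0.09 in JeKo-1, from 32.9 CPM to 23.9 and 25.6 CPM. In RL it was the most abundant member in CPM, at 178 and 173 CPM in the controls and 167 and 160 CPM after treatment, and did not pass.

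Among membrane and secreted products, BST2, or tetherin, which holds budding virus at the cell surface, fell in JeKo-1 by 0.83 ± 0.11, from 19.2 CPM to 10.6 and 11.1 CPM. In RL it stood at 47.4 and 41.2 CPM in the controls and 40.8 and 36.2 CPM after treatment, and its log2 fold change of -0.21 ± 0.08 did not pass (edgeR adjusted p = 0.059). PLSCR1, the scramblase, fell in RL by 0.50 ± 0.09, from 22.9 and 19.4 CPM to 15.7 and 14.4 CPM. In JeKo-1 it had 33 counts in the control and 13 and 17 after treatment and did not pass. LGALS3BP, a secreted glycoprotein, rose in RL by 0.45 ± 0.09, from 9.43 and 10.2 CPM to 14.2 and 12.8 CPM, and had 2.16 CPM beside 1.58 and 1.46 CPM in JeKo-1 without passing. IFI6 passed in neither line, and IFI27 did not pass in RL and was not tested in JeKo-1. In RL, IFI6 lay between 2.90 and 4.55 CPM and IFI27 between 0.778 and 1.06 CPM.

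Of the other effectors, ISG20, an exonuclease that degrades RNA, showed the largest rise of any member in both lines. It stood at 12.4 and 11.4 CPM in the RL controls and 25.9 and 22.8 CPM after treatment, and at 5.38 CPM in the JeKo-1 control and 8.31 and 9.40 CPM after treatment. It rose by 1.03 ± 0.08 in RL (2.04-fold, edgeR adjusted p = 4.2e-06) and by 0.71 ± 0.15 in JeKo-1 (1.64-fold, 1.9e-05). No treated library overlapped a control. IFI35, an interferon-induced leucine zipper protein, rose in RL by 0.66 ± 0.12, from 4.39 and 4.43 CPM to 7.78 and 6.38 CPM, and had 3.02 CPM beside 2.35 and 2.52 CPM in JeKo-1 without passing. SAMD9, an antiviral restriction factor, rose in RL by 0.47 ± 0.08, from 75.1 and 64.4 CPM to 105 and 89.5 CPM, and had 8.90 CPM beside 10.7 and 11.4 CPM in JeKo-1, where its log2 fold change of 0.30 ± 0.13 did not pass. Its neighbour SAMD9L had 116 and 94.8 CPM in treated RL, a rise of 0.40 ± 0.11, and 36 counts in the JeKo-1 control beside 10 and 7 after treatment, a fall of 1.95 ± 0.49. SAMD9 and SAMD9L thus had values of opposite sign in JeKo-1. The SAMD9L calls were not stable: the RL rise was lost without control library 2 (0.23) or treated library 1 (0.24), and the JeKo-1 fall without treated library 1 (-2.24, edgeR adjusted p = 0.101) or 2 (-1.67, 0.170).

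EPSTI1, named for epithelial-stromal interaction, stood at 15 and 12 CPM in the RL controls and 20.4 and 16.9 CPM after treatment, and had 53 counts in the JeKo-1 control beside 23 and 21 after treatment. It rose by 0.46 ± 0.11 in RL and fell by 1.15 ± 0.35 in JeKo-1, and the JeKo-1 call was lost without treated library 1 (-1.23) or 2 (-1.03), with edgeR adjusted p = 0.0778 and 0.114. XAF1, a pro-apoptotic protein, had 136 counts in the JeKo-1 control and 46 and 62 after treatment and fell by 1.21 ± 0.23; without treated library 1 the value was -1.03 and did not pass (0.124). In RL it stood at 17.8 and 12.8 CPM in the controls and 22.6 and 15.4 CPM after treatment, with overlapping groups. TRIM22, an antiviral ubiquitin ligase, rose in JeKo-1 by 0.29 ± 0.09, from 21.4 CPM to 26.9 and 25.8 CPM, a call that was lost without treated library 1 (0.28) or 2 (0.34), with adjusted p = 0.134 and 0.0619. In RL it stood at 109 and 94.0 CPM in the controls and 115 and 106 CPM after treatment, again overlapping. Of the rest, IFI44L had 20 counts in the JeKo-1 control and 3 and 2 after treatment, a ratio of 7.34 with a 95% counting interval of 2.67 to 25.0. The fits without a treated JeKo-1 library used the 4-group model. With all 7 libraries that model called EPSTI1, XAF1 and TRIM22 but not IFI44L (-2.82). Its missing calls without treated library 1 (-3.15) or 2 (-2.53) thus do not show that it depends on 1 library. IFI44L (30.9 and 22.0 CPM), IFI44 (14.0 and 10.7 CPM) and RSAD2 (6.63 and 5.43 CPM) in treated RL overlapped their controls, which for IFI44 stood at 13.9 and 9.78 CPM and for RSAD2 at 6.39 and 4.96 CPM.

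Members called in both lines did not always move the same way. Of the 10 called in both, 4 rose in both (STAT2, IRF1, MX2 and ISG20), 3 fell in both (OAS3, PARP9 and DTX3L) and 3 rose in RL and fell in JeKo-1 (MX1, SAMD9L and EPSTI1). Opposite calls were thus 30% of the members called in both, and 18.9% of the 1671 genes called in both. The 3 members lower in untreated RL than in untreated JeKo-1, namely STAT2, IRF1 and MX2, were among the 4 that rose in both lines. Another 9 members were called in RL only and 11 in JeKo-1 only, which does not show that the lines differ for them. Over all genes, 4543 of 14932 tested (30.4%) were called in RL and 3970 of 14050 (28.3%) in JeKo-1. Of these, 1671 were called in both lines, and the rest of each count in that line only. The share of all genes called in neither was not computed. Of the 10 members called in neither line, DDX60, HERC5, IFI27, RSAD2 and IFI44 were not tested in JeKo-1.

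The difference itself was tested as an interaction in a model of all 7 libraries. Of the 40 members, 18 had a lower response in JeKo-1 than in RL, where 8.95% of the 15845 genes tested did, and 0 had a higher one, where 8.82% of genes did; 23 of the 40 had an unadjusted edgeR p under 0.05, beside 28.6% of all genes, and the DESeq2 and limma-voom runs also called none higher. The median difference was -0.751 over the members and -0.001 over all genes. All these differences rest on the same 1 JeKo-1 control library, and the members shifted together between libraries of 1 RL group (below). The 18 are thus not separate pieces of evidence. Whether the members' shared level was raised in that control could not be tested. The smallest p-values belonged to MX1 (-2.06 ± 0.20, edgeR adjusted p = 4.3e-07), IRF9 (-1.24 ± 0.14, 4.1e-06), OAS1 (-1.07 ± 0.14, 2.6e-05), PARP9 (-0.79 ± 0.12, 6.4e-05), OASL (-3.91 ± 0.69, 0.00042) and USP18 (-1.10 ± 0.21, 0.00106). All 4 OAS genes were among the 18. Without JeKo-1 treated library 2, OAS2 (-0.66, edgeR adjusted p = 0.0518), IFIT1 and SAMD9L were lost. DESeq2 did not call IRF7, OAS2 or PARP14 (adjusted p = 0.262, 0.0886 and 0.0717). Without JeKo-1 treated library 1 the count was 11, with IRF7, OAS3, IFIT1, IFIT3, PARP14, XAF1 and SAMD9L lost. STAT2, IRF1, MX2, ISG20, DDX58, SAMD9 and TRIM22 had differences between -0.30 and 0.18 that did not pass.

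Genes that lie side by side did not always respond together. No other protein-coding gene stands between OAS1, OAS3 and OAS2, between MX2 and MX1 or between SAMD9 and SAMD9L in RefSeq. The same holds for IFIT2 and IFIT3, IFIT1 and IFIT5, IFI44L and IFI44, HERC6 and HERC5, and PARP9 and DTX3L. In RL, OAS1 and OAS2 rose while OAS3, which lies between them, fell. In JeKo-1, MX2 rose while MX1 fell. PARP9 and DTX3L moved the same way in both lines. IFIT1 and IFIT5 were both called lower in JeKo-1, where both passed the filter only through the control, and neither was called in RL. IFIT3 was called lower in JeKo-1 and its neighbour IFIT2 was not. Members of these families have similar sequences, and how the deposited counts treated reads that match more than 1 of them is not given in the sources used here.

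The libraries of the same RL group differed in the members' shared level. RL control library 1 lay above control library 2 in 35 of 40 members (87.5%), as in 52.2% of all genes, and treated library 1 above treated library 2 in 37 (92.5%), as in 47.2% of all genes. The median log2 difference was 0.21 between the controls and 0.20 between the treated libraries, where all genes had 0.01 and -0.01. IFI44L, at 29.3 and 19 CPM in the controls and 30.9 and 22.0 CPM in treated RL, is an example. In JeKo-1, treated library 1 lay above library 2 in 16 of 35 tested members. This spread within the RL groups is larger than the members' median response of 0.155, and the count of RL calls moved with the library left out, from 13 to 20 for rises (lowest without control library 2 or treated library 1, highest without control library 1) and from 3 without treated library 2 to 9 without treated library 1 for falls. What set the libraries apart was not tested.

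**Figure D4:**
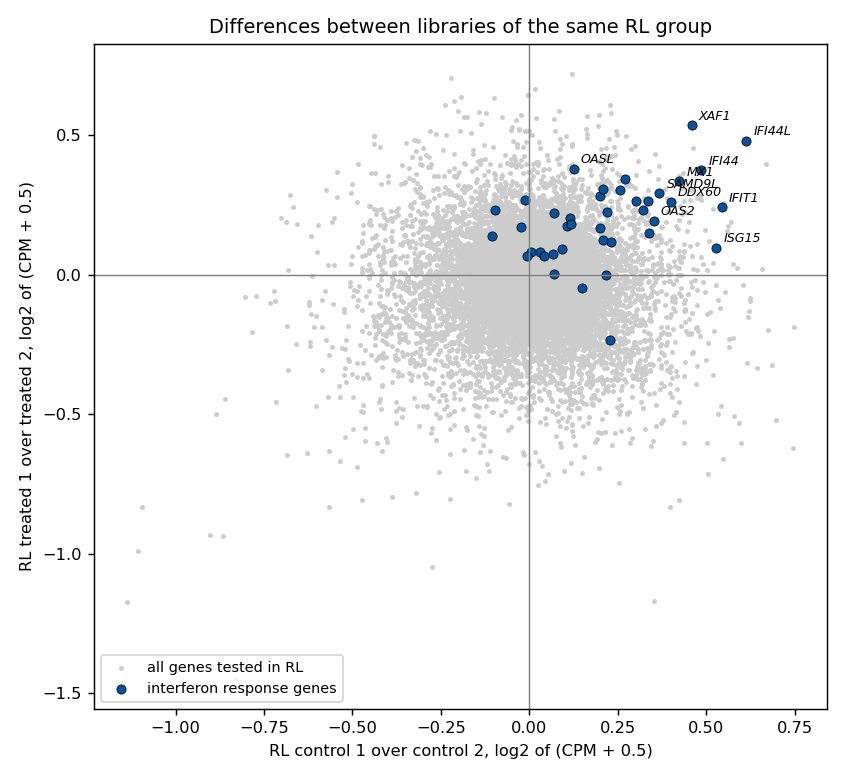
Log2 difference between the 2 RL control libraries (horizontal) and between the 2 treated RL libraries (vertical), from CPM with 0.5 added, for all genes tested (grey) and the 40 members (coloured). The members lie mostly in the upper right area, where 32 of 40 (80.0%) are above 0 on both axes, as are 23.8% of all genes.

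Upstream of the members, the interferon genes themselves were low in both lines. The 21 interferon ligand genes summed to between 0.395 and 0.663 CPM in the RL libraries and between 2.46 and 2.60 CPM in JeKo-1, with 13 and 10 of them at 0 counts in every library of the line. None passed the filter in RL, and of 3 that did in JeKo-1 none was called (edgeR). IFNW1, for interferon omega, had 49 counts in the JeKo-1 control and 60 and 49 after treatment, and IFNA21, for a form of interferon alpha, had 17 beside 21 and 21. In RL they had at most 5 and 0 counts in a library, and both were called higher in untreated JeKo-1 than in untreated RL, against the direction of most members. Of 10 genes for interferon receptors and JAK-STAT signalling, 3 rose and 2 fell in RL, and 1 rose and 2 fell in JeKo-1. The shares over all genes were 15.1% higher and 15.3% lower in RL, and 13.4% higher and 14.9% lower in JeKo-1, so the JeKo-1 count of this list is near that of genes at large. JAK1, a kinase of the interferon receptors, stood at 137 and 138 CPM in the RL controls and 181 and 179 CPM after treatment, and at 64.7 CPM in the JeKo-1 control and 101 and 93.6 CPM after treatment, and rose by 0.39 ± 0.04 and 0.58 ± 0.07. IFNGR1, a chain of the interferon gamma receptor, and IL28RA, the interferon lambda receptor chain now named IFNLR1, fell in both lines, by 0.29 and 0.19 in RL and by 0.43 and 0.41 in JeKo-1.

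Of genes for nucleic acid sensing and other IRFs, 8 of the 21 tested rose and 6 fell in RL (15.1% and 15.3% of all genes), and 5 of 20 rose and 6 fell in JeKo-1 (13.4% and 14.9%). UNC93B1, the chaperone that carries nucleic acid-sensing Toll-like receptors to endosomes, rose in RL by 0.65 ± 0.07 and fell in JeKo-1 by 1.21 ± 0.16, and TLR9, a receptor it serves, fell by 0.27 and 1.42. IRF8, a B cell and myeloid factor, rose in RL by 0.95 ± 0.05, from 53.9 and 54.8 CPM to 102 and 108 CPM, and fell by 0.20 ± 0.08 in JeKo-1. IRF4, a factor of activated B cells and plasma cells, fell by 0.41 in RL and rose by 0.51 in JeKo-1, and IRF5 fell in both lines. IRF2, which competes with IRF1 for its sites, rose by 0.22 in RL and 0.74 in JeKo-1. Of 12 negative regulators, 4 rose and 5 fell in RL, and of 11 tested in JeKo-1, 3 rose and 2 fell, beside the same shares. PTPN6, the phosphatase SHP-1, fell in both lines, from 68.9 and 68.8 CPM to 21.2 and 21.9 CPM in RL and from 122 CPM to 2.57 and 3.25 CPM in JeKo-1, and SOCS3, a feedback inhibitor of JAK kinases, fell by 1.04 ± 0.08 in RL.

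Interferon-induced genes outside the 40 are given here as counts. Of 40 others tested in RL, 6 rose and 8 fell, with a median log2 fold change of 0.01, near the shares of all genes (15.1% and 15.3%), and of 36 tested in JeKo-1, 2 rose and 15 fell, with a median of -0.21, where 13.4% and 14.9% of all genes did. In the interaction test 14 of 41 had a lower response in JeKo-1, as had 8.95% of all genes, and 0 a higher one, as had 8.82%. These differences rest on the same 1 JeKo-1 control library as those of the members. EIF2AK2, the RNA-activated kinase PKR, fell in JeKo-1 by 0.83 ± 0.10 and did not pass in RL, and WARS, a tRNA synthetase induced by interferon gamma, fell there by 0.78 ± 0.06. IFI30, a lysosomal thiol reductase, fell in both lines, by 1.07 and 1.62, as did SP140, a nuclear body protein of lymphocytes, by 0.32 and 1.91. TNFSF10, the death ligand TRAIL, rose in both lines, from 11.5 CPM in both RL controls to 18.0 and 17.6 CPM and from 13 counts in the JeKo-1 control to 38 and 33. Of 14 genes for MHC class I presentation, 6 rose and 1 fell in RL, and 1 rose and 6 fell in JeKo-1, beside the same shares of all genes, with 6 lower responses in JeKo-1 in the interaction test (8.95% of all genes). HLA-B rose by 0.25 in RL and fell by 0.24 in JeKo-1 on the log2 scale, and HLA-C rose by 0.28 in RL and fell by 0.17 in JeKo-1. Reads of the HLA genes can be split between near-identical copies, so these values are uncertain.

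Markers of other cell types that make or answer interferon were summed for comparison. T and NK cell markers (12 genes) lay between 3.27 and 4.99 CPM in RL and 0.707 and 1.3 CPM in JeKo-1, and myeloid markers (12 genes) between 8.51 and 11.8 CPM and 3.08 and 4.29 CPM. Within RL, PRF1, the gene for perforin, stood at 2.07 and 2.13 CPM in the controls and 3.83 and 3.70 CPM after treatment, and was the 1 gene called of the 3 T and NK markers tested; the rise of that sum lay in it. VCAN, for versican, stood at 2.85 and 3.54 CPM and then 1.67 and 1.20 CPM, and was the 1 called of 5 myeloid markers tested, with most of the fall of that sum. The 6 matched markers of plasmacytoid dendritic cells, the main producers of type I interferon, lay between 43.6 and 46.5 CPM in RL, of which SMPD3 gave 42.7 CPM or more, and between 7.55 and 10.6 CPM in JeKo-1. Among them LILRA4, a defining marker, had at most 8 counts in an RL library, and in JeKo-1 it had 30 counts in the control and 1 in each treated library. Of these lists 1, 5 and 1 genes were at 0 counts in every RL library and 4, 5 and 4 in every JeKo-1 library. Epithelial and stromal markers (12 genes) lay between 88.1 and 93.8 CPM in RL, of which EPCAM gave 75.4 CPM or more, and between 1.01 and 1.68 CPM in JeKo-1, with 3 and 7 genes at 0 counts throughout. The part of such transcripts in the members' levels was not tested.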

How the data were processed

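RNA-seq libraries of RL and JeKo-1 were made with an Illumina TruSeq kit that does not mark strand, per the labels' protocols. CASAVA 1.8, BWA and Partek 6.6 with hg19 (GRCh37) are named in the submitters' processing notes, without roles. The values analysed are the raw counts of reads that the authors deposited, for 34917 RefSeq transcripts of 22257 genes. Columns headed FRKM, which the authors deposited on a log2 scale, were not used. The authors' deposited log2 ratios of each line, and the RL p-value after FDR adjustment, serve for description only; in the JeKo-1 table that ratio's header names an ALK inhibitor and the read columns a BTK inhibitor. A deposited joint table of signed fold scores was not used.

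Transcripts of a gene largely repeat the same reads, so 1 transcript per gene is reported. Fits were made in R 4.3.3 by the quasi-likelihood test of edgeR 4.0.16, after filterByExpr and TMM scaling, with Benjamini-Hochberg adjustment over all transcripts and calls at an adjusted p under 0.05. Each line had its own fit, RL with 25099 transcripts tested and JeKo-1 with 23564, leaving 2 and 1 residual degrees of freedom; differences between lines came from a 4-group model of 26362 transcripts with 3. Summed over all transcripts, which repeat reads, the libraries held 32.4 to 56.8 M counts. Replicate libraries differed by more than counting noise (chi-square over its degrees of freedom, 3.41 to 4.55). Standard errors are the log2 fold change over the root of the F statistic. Ratios of low counts have exact 95% intervals. Pathway and marker lists hold 184 genes, of which LAMP5 was not matched. Alternatives were DESeq2 1.42.0, limma-voom (limma 3.58.1), DESeq2's size factors in edgeR, no filter, 1 transcript per gene in the fit, the 4-group model, replicate number as a block, and each library left out. The edgeR script was tested on simulated data.

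The members and lists were chosen with earlier results of these data known. Values in every library are given for the members that a rule named: up to 8 called members per direction and line with the largest change at 1 CPM or more, the 6 with the smallest p for the line difference, the 5 highest per kilobase in each line, the 6 with the widest gap between untreated lines, and STAT2, IRF9, IRF7, IRF1, ISG15, MX1 and IFIT1; from each list, up to 4 genes per line with the smallest p. The other 9 members are given more briefly. List genes named beyond this rule were chosen after their values were seen, and some list genes are not reported here by name. Figures were drawn with matplotlib 3.10.9.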

Additional observations from a re-analysis of the deposited data

Results flagged for a closer look

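In 18 of the 40 members the response to the inhibitor differed between the lines in the interaction test (edgeR, adjusted p under 0.05 over all transcripts). Of the 15845 genes tested, 17.8% differed. In each of the 18 members the JeKo-1 log2 fold change was the lower one, as in 8.95% of all genes. Among the factors these were IRF9 (-1.24) and IRF7 (-0.75). All 4 OAS genes were among them, OAS1 at -1.07, OAS2 at -0.75, OAS3 at -1.44 and OASL at -3.91. IFIT1 (-2.42), IFIT3 (-1.54), MX1 (-2.06) and USP18 (-1.10) were others, as were PARP9 (-0.79) and PARP14 (-0.30). The surface and secreted products BST2 (-0.61) and LGALS3BP (-0.95) belonged to the group, and so did XAF1 (-1.49), SAMD9L (-2.34), EPSTI1 (-1.59) and IFI35 (-0.97). OASL had 31 counts and IFIT1 26 counts in the only JeKo-1 control, so their sizes rest on few reads. All 18 differences share the only JeKo-1 control, so they are not separate pieces of evidence. Groups of 1 or 2 libraries allowed no test for a single library that stands apart.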

How the results depend on the processing

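The 15 RL rises ranged from 13 to 20 over left-out libraries, and DESeq2 called 12. The 4 RL falls became 7 with DESeq2's size factors, 7 in the 4-group model and 9 without the filter, with a range of 3 to 9 over left-out libraries (8 without control library 2). All 4 stayed in every setting except OAS3, lost without treated library 2. With replicate number as a block, 17 members rose and 9 fell. Over 12685 genes, which are not independent replicates, the differences between libraries 1 and 2 were unrelated in the 2 RL groups (r = -0.0221). That value does not speak for the members alone. In 32 of the 40 (80.0%, beside 23.8% of all genes) library 1 lay above library 2 in both RL groups. Why the counts changed with the block was not tested. No paired analysis was possible for JeKo-1 because its groups share only 1 number.

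The 16 JeKo-1 falls became 7 under DESeq2, and 11 to 13 over left-out treated libraries, in a model of 6 libraries where a lone library is assumed to vary like the others; the 5 rises became 4, without TRIM22. The line difference of 18 ranged from 11 (without JeKo-1 treated library 1) to 21. The 36 members higher in untreated RL became 35 under DESeq2, without IFI35, and otherwise stayed at 36. ISG15, not called in JeKo-1 at -0.03, had 0.23 without treated library 1 and -0.30 without library 2. Unscaled CPM gave JeKo-1 sums of 513 and 460. Over single members and alternatives, 223 RL values kept their direction and side of the threshold, 11 gained a call and 8 lost one; in JeKo-1 the numbers were 157, 1 and 21, and for the line difference 183, 0 and 15. For the lost calls the cause was not tested. With 3 counts taken as the limit for 0, levels under 0.0494 to 0.0865 CPM could not be told from none.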
